A study of Homo sapiens with 6 samples.

Results

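Activator protein 1 (AP-1) is a transcription factor made of pairs of basic leucine zipper (bZIP) proteins. The genes described here are its 10 family members JUN, JUNB, JUND, FOS, FOSB, FOSL1, FOSL2, ATF3, BATF3 and JDP2, taken by gene name from the 23228 genes counted in HEC-1-A, a line of human endometrial adenocarcinoma cells. They were chosen from measured values, since the change of several of them between the treated and control libraries of this experiment was already known, so their levels and changes are given as a description and no test is drawn from them. The 3 SMIP34 libraries came from HEC-1-A cells kept for 24 h with 20 µM SMIP34, a small molecule inhibitor of PELP1, a nuclear coregulator and ribosome assembly factor. The 3 control libraries came from HEC-1-A cells in McCoy's 5A medium without SMIP34, with vehicle in its place by the study's methods, and both groups had 10% FBS. Only 1 cell line, 1 dose and 1 time were measured. The labels do not say whether the replicates were separate cultures, so every error and p-value covers the spread between these libraries, which may be technical.

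AP-1 pairs consist of a Jun protein with another Jun protein, with a Fos protein or with an ATF or JDP protein, while Fos proteins do not form stable pairs with each other. The pairs bind the AP-1 site, first known from phorbol ester response elements, and the related cyclic AMP response element (CRE). JUN, FOS, FOSB and ATF3 are classical immediate early or stress-induced genes, whose transcripts appear quickly after growth factors, cytokines or stress through JNK, ERK and p38 kinases, and are then short-lived. JUND and FOSL2 are more steadily expressed, JUNB and JDP2 often oppose JUN on shared sites, and the mix of members sets which genes a cell turns on.

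The libraries held between 19562711 and 22014835 counts assigned to genes, and 13408 genes had enough counts to be tested. Control replicate 1 had a count for 16881 genes, against 15965 to 16100 in the other libraries. The epithelial markers (EPCAM, CDH1, PAX8, CLDN4, MUC1 and 4 keratins) summed to between 5648 and 5849 CPM (gene counts scaled to the size of each library) in control and between 5548 and 5670 CPM in SMIP34 libraries, with none of the 9 at 0. Of these markers KRT8, KRT19, PAX8 and MUC1 were lower and CLDN4 was higher (edgeR's quasi-likelihood test, Benjamini-Hochberg adjusted p between 2.42e-06 and 0.0450), by at most 0.32 on the log2 scale. Of 8 stromal markers, 6 averaged less than 1 CPM, LUM and PDGFRA were at 0 throughout, and the list summed to between 5.20 and 6.59 CPM in control and between 6.38 and 6.70 CPM in SMIP34 libraries. The most abundant stromal marker, COL1A1, rose from 2.96 ± 0.218 to 4.19 ± 0.346 CPM (log2 fold change 0.50 ± 0.16, edgeR adjusted p = 0.0151). The part of these markers in the values below was not tested. The 6 immune markers summed to at most 2.23 CPM, with CD3E and MS4A1 at 0 throughout, and the 4 endothelial markers to at most 0.876 CPM. The median log2 fold change over all genes tested was -0.0024, and PELP1 mRNA was 139 ± 6.50 CPM in control and 156 ± 4.43 CPM in SMIP34 libraries (SD, n = 3 each). These are bulk libraries, in which more cells with a transcript and more of it per cell cannot be told apart.

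The DNA just upstream of the members with the largest fold changes, and of JUND, whose groups overlapped, is shown first. Sites known for the kinase pathways and for AP-1 can lie there, but whether any of them acts in these cells was not tested. The bases are those of the GRCh37 reference genome, read 5′ to 3′ on the strand of each gene, and positions are counted upstream from the transcription start of its GENCODE MANE Select transcript. The JUN window covers the 250 bases before the start at chr1:59249720-59249969 on the minus strand. Its capitals mark TGACATCA, the AP-1-like site known for JUN acting on its own gene, at 67 to 60 bases upstream.

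JUN: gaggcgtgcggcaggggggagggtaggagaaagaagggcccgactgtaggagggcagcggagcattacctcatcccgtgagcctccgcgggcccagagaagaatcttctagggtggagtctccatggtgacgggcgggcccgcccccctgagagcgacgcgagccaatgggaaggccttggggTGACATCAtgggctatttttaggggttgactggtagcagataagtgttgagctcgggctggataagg

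The FOS window, chr14:75745181-75745430 on the plus strand, and the FOSB window, chr19:45970904-45971153 on the plus strand, both run from 350 to 101 bases upstream. Capitals mark the CArG box, to which serum response factor (SRF) binds, in both genes and, in FOSB, also a full CRE. The CArG box lies 314 to 305 bases upstream of FOS and 274 to 265 bases upstream of FOSB.

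FOS: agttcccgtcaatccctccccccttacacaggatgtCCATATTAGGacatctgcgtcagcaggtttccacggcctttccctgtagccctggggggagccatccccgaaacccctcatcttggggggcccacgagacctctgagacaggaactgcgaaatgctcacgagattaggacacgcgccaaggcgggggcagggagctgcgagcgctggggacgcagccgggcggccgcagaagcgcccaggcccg
FOSB: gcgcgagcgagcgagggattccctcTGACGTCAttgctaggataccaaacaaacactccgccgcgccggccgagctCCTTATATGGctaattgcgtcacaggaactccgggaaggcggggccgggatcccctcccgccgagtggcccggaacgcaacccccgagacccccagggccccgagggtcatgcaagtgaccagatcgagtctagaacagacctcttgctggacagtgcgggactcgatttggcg

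The ATF3 window is chr1:212781853-212782102 on the plus strand, with a TATA box in capitals, and the JUND window is chr19:18392433-18392682 on the minus strand, with a CRE in capitals. Both cover the 250 bases before the start. The authors' gene model of ATF3 begins 43406 bases farther upstream than this transcript, and its counts cover both starts.

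ATF3: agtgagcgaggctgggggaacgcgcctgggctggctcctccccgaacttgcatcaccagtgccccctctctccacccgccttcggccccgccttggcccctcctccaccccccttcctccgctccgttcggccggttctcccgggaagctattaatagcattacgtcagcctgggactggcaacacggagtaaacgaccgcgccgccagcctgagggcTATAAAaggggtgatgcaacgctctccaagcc
JUND: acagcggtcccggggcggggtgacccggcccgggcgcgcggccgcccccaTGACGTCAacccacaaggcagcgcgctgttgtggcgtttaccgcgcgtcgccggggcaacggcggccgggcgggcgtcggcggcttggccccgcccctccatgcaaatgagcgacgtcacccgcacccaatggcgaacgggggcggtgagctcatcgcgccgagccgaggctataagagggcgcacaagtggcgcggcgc

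JUN, the founding member and the strongest activator among the Jun proteins, is a gene of 1 exon (hg19 chromosome 1, from 59246463 to 59249785, minus strand). JUN stood at 36.0, 39.5 and 35.1 CPM in control replicates 1, 2 and 3 and at 94.1, 96.0 and 96.7 CPM in SMIP34 replicates 1, 2 and 3. Every SMIP34 library was thus above every control library, and the SMIP34 libraries lay closer together than the control libraries. The log2 fold change of JUN was 1.37 ± 0.044 (standard error of the fit), a ratio of 2.59, which ranked 33 of 13408 genes from the largest increase down. JUNB, which can restrain JUN in proliferating cells, is also a gene of 1 exon (chromosome 19, from 12902310 to 12904125). JUNB stood at 111, 118 and 110 CPM in the control and at 152, 155 and 153 CPM in the SMIP34 libraries, and its log2 fold change of 0.44 ± 0.034 lay just under the fold limit of 0.5. JUND, which is often linked to quiescence and protection from oxidative stress, is the third Jun gene with 1 exon (chromosome 19, from 18390563 to 18392432, minus strand). JUND stood at 138, 145 and 145 CPM in the control and at 142, 146 and 144 CPM in the SMIP34 libraries. The JUND groups overlapped and its log2 fold change was 0.0088 ± 0.032, so the 3 Jun genes ran from a ratio of 2.59 to a ratio of 1.01.

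Among the Fos genes, the member scarcest in control cells had the largest fold change, while FOSL1 rose most in CPM. FOSB, a strong activator whose shorter splice product is stable and accumulates on repeated stimulation, lies on chromosome 19 from 45971253 to 45978437. FOSB stood at 1.75, 1.75 and 2.21 CPM in the control and at 17.8, 15 and 16 CPM in the SMIP34 libraries. No SMIP34 library was near a control library, and the log2 fold change of 3.09 ± 0.13, a ratio of 8.52, ranked 4 of 13408 genes. FOS, the classical immediate early gene on chromosome 14 from 75745481 to 75748937, stood at 5.05, 6.30 and 7.55 CPM in the control and at 12.9, 14.6 and 14.7 CPM in the SMIP34 libraries. The FOS groups did not overlap either, although its control libraries spread over 19.9% of their mean (coefficient of variation), and its log2 fold change was 1.15 ± 0.11. FOSL1, which encodes FRA1, a Fos protein without a strong activation domain that is common in invasive carcinoma cells, lies on chromosome 11 from 65659692 to 65667997 on the minus strand. FOSL1 stood at 87.5, 84.8 and 84.2 CPM in the control and at 124, 119 and 126 CPM in the SMIP34 libraries. Its log2 fold change of 0.52 ± 0.036 lay just above the fold limit, opposite JUNB just under it. FOSL2, which encodes FRA2, lies on chromosome 2 from 28615779 to 28637516 and stood at 127, 130 and 138 CPM in the control and at 127, 126 and 130 CPM in the SMIP34 libraries. The FOSL2 groups overlapped, with a log2 fold change of -0.046 ± 0.035.

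ATF3, a stress-induced partner of Jun proteins that often represses its targets, lies on chromosome 1 from 212738697 to 212794116. ATF3 stood at 7.26, 7.45 and 8.76 CPM in the control and at 24.2, 26.5 and 24.5 CPM in the SMIP34 libraries. All SMIP34 libraries were well above the control libraries, with a log2 fold change of 1.68 ± 0.085, a ratio of 3.20, which ranked 21 of 13408 genes. JDP2, a repressor that pairs with Jun proteins and brings histone deacetylases to AP-1 and CRE sites, lies on chromosome 14 from 75894509 to 75939404. JDP2 stood at 70.5, 67.2 and 65.5 CPM in the control and at 53.1, 58.5 and 53.1 CPM in the SMIP34 libraries. JDP2 was the member with every SMIP34 library below every control library, and its log2 fold change was -0.30 ± 0.045. BATF3, best known from dendritic cells and lymphocytes, lies on chromosome 1 from 212859759 to 212873327 on the minus strand. BATF3 had 4, 12 and 4 counts in the control and 2, 8 and 15 counts in the SMIP34 libraries, too few for the filter on low counts, so no fold change is given for it.

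**Figure D1:**
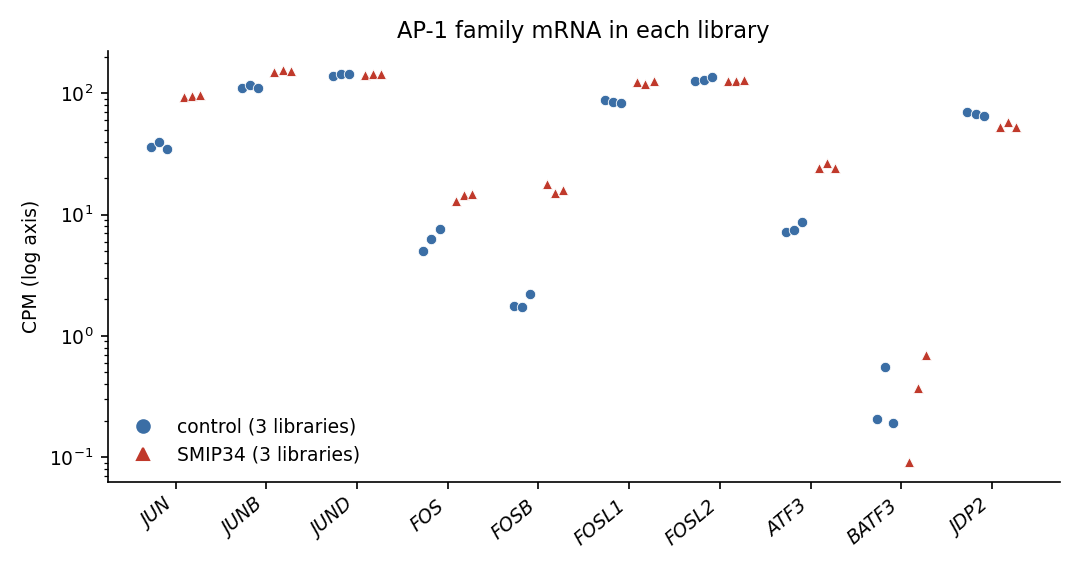
CPM of each AP-1 family member (log axis) in the 3 control libraries (circles) and the 3 SMIP34 libraries (triangles), replicates 1 to 3 from left to right. JUN, JUNB, FOS, FOSB, FOSL1 and ATF3 lie higher in all SMIP34 libraries, JDP2 lies lower, JUND and FOSL2 overlap, and BATF3 stays below 1 CPM.

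Of the 9 members with enough counts, 5 (JUN, FOS, FOSB, FOSL1 and ATF3) had an adjusted p-value under 0.05 and a log2 fold change above 0.5, where 1.44% of all genes tested did, and 0 had such a p-value and a log2 fold change under -0.5, where 1.87% did. Without the fold limit, 6 members were higher, against 17.4% of all genes, and 1 was lower, against 17.2%. In 6 members all SMIP34 libraries lay above all control libraries, against 22.6% of all genes, and in 1 member all lay below, against 21.9%. The members were chosen with this comparison known, so nothing is read from these counts. The filter on low counts removed BATF3, so these are counts over 9 of the 10 members.

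**Figure D2:**
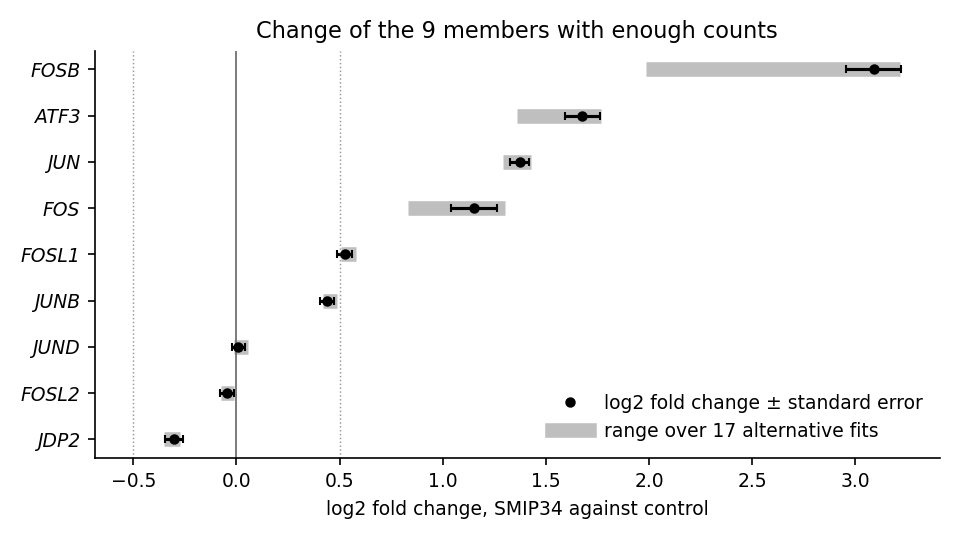
Log2 fold change of SMIP34 against control for the 9 members with enough counts (points, bars ± 1 standard error), with the range over 17 alternative fits in grey and dotted lines at the fold limit of 0.5 in either direction. FOSB lies at 3.09, ATF3 at 1.68, JUN at 1.37 and FOS at 1.15, FOSL1 and JUNB lie on either side of the limit, and JUND, FOSL2 and JDP2 lie between -0.30 and 0.01.

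Levels of different genes were compared as CPM per kb of exon, with the exon length of the authors' gene models. That length was 3308 bases for ATF3 and 3991 for FOSL2, whose MANE Select transcripts have 1940 and 6713 bases. The order, shares and ratios of different genes below therefore hold for these lengths. In control cells the most abundant member was JUND with 76.4 ± 2.19 CPM per kb (SD, n = 3), followed by JUNB with 62.2 ± 2.43, FOSL1 with 51.2 ± 1.05, FOSL2 with 32.9 ± 1.4, JDP2 with 15.8 ± 0.592 and JUN with 11.1 ± 0.710. The control libraries of these 6 members did not overlap with those of the next in the order. FOS with 2.92 ± 0.581 and ATF3 with 2.37 ± 0.246 CPM per kb overlapped, as did FOSB with 0.504 ± 0.0709 and BATF3 with 0.323 ± 0.208. With these exon lengths neither pair had a clear order in control cells. FOSB, ATF3 and FOS, which had large fold changes, were thus among the scarcest members in control cells.

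With SMIP34 the order began with JUNB at 84.4 ± 0.942 CPM per kb, JUND at 76.9 ± 1.07 and FOSL1 at 73.7 ± 2.27, followed by FOSL2 at 31.9 ± 0.539, JUN at 28.8 ± 0.401 and JDP2 at 12.8 ± 0.728. JUNB thus stood above JUND in every SMIP34 library and below it in every control library, and JUN stood above JDP2 where it had stood below it. ATF3 at 7.57 ± 0.393, FOS at 6.53 ± 0.459 and FOSB at 4.31 ± 0.381 CPM per kb came next, and BATF3 was last at 0.392 ± 0.307. No neighbours in the SMIP34 order overlapped, so FOSB and BATF3 were separate there.

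Summed over the family, the level was 256 ± 4.13 CPM per kb in the control and 327 ± 2.85 in the SMIP34 libraries, a ratio of 1.28. The Jun genes summed to 150 ± 4.44 and 190 ± 2.28 CPM per kb, the Fos genes to 87.6 ± 1.22 and 116 ± 2.87, and ATF3, BATF3 and JDP2 to 18.5 ± 0.365 and 20.8 ± 1.16. The ratios of the subfamily sums were therefore far smaller than those of FOSB, ATF3 or JUN alone, since abundant members with small fold changes make up most of each sum. JUN made up 7.41% ± 0.306 of the Jun sum in control and 15.1% ± 0.131 in SMIP34 libraries, while JUND made up 51.1% ± 1.04 and 40.5% ± 0.0785. FOSL1 remained the largest Fos transcript, with 58.5% ± 1.81 of the Fos sum in control and 63.3% ± 0.478 in SMIP34 libraries. FOSB made up 0.575% ± 0.0724 and 3.70% ± 0.295 of that sum, and FOSL2 37.6% ± 1.12 and 27.4% ± 0.325. ATF3 made up 12.8% ± 1.57 of the third sum in control and 36.4% ± 0.401 in SMIP34 libraries, most of the rest being JDP2.

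The balance between some members can be read as ratios of levels within each library. JUND to JUN was 6.82, 6.53 and 7.37 in the control and 2.67, 2.70 and 2.65 in the SMIP34 libraries. JDP2 to ATF3 was 7.51, 6.98 and 5.79 in the control and 1.70, 1.71 and 1.68 in the SMIP34 libraries. FOS to FOSB was 5.04, 6.31 and 5.97 in the control and 1.27, 1.71 and 1.61 in the SMIP34 libraries. With the exon lengths used, the more abundant transcript stayed more abundant in each of the 3 ratios, and the values of the groups did not overlap. The order of JDP2 and ATF3 with SMIP34 depends on the exon length taken for ATF3. All of these are mRNA ratios, and protein levels and phosphorylation of the members were not measured here.

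**Figure D3:**
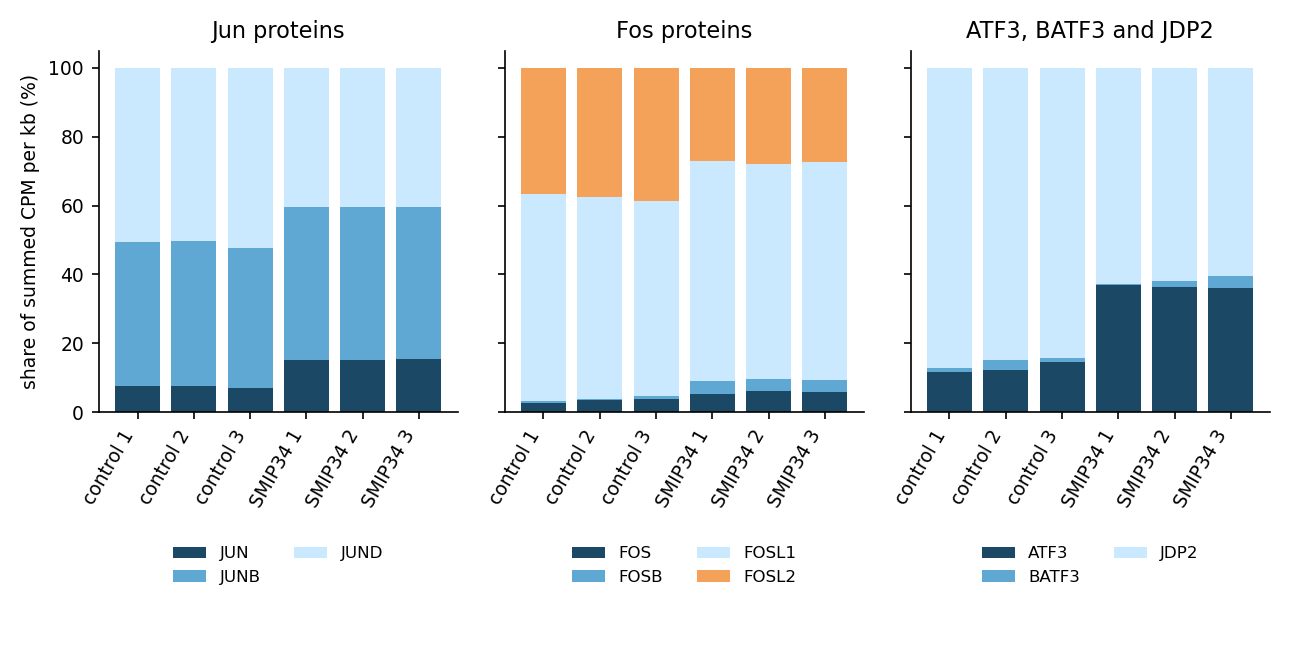
Share of each member (%) in the summed CPM per kb of its subfamily, 1 bar for each of the 3 control and 3 SMIP34 libraries, for the Jun genes, the Fos genes, and ATF3, BATF3 and JDP2. JUN takes 7.41% of the Jun sum in control and 15.1% in SMIP34 libraries, FOSB 0.575% and 3.70% of the Fos sum, and ATF3 12.8% and 36.4% of the third sum.

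Motifs were searched on both strands of the 500 bases upstream of 18922 genes, and matches of different motifs may overlap, the CRE holding its core TGACG on each strand. The AP-1 site TGACTCA was found upstream of 0 of the 10 members and of 6.06% of all genes. The CRE TGACGTCA was found upstream of JUND, at 200 to 193 bases, and FOSB, at 325 to 318 bases, and of 2.92% of all genes. TGACATCA was found upstream of JUN and of 2.70% of all genes, and the core TGACG alone upstream of 9 members, BATF3 being the exception, and of 36.7% of all genes. The CArG box was found upstream of FOS and FOSB and of 2.36% of all genes. The heat shock element GAANNTTC was found upstream of JUN and FOS and of 9.88% of all genes, and the NF-kB site upstream of JUNB and of 11%. A TATA box, TATAAA on the strand of the gene, was found upstream of JUNB, FOS, FOSB and ATF3, where it lay between 33 and 25 bases upstream, and somewhere in the window of 12.1% of all genes. The GC box GGGCGG was found upstream of 9 members and 66.0% of all genes, and CCAAT upstream of 5 members and 50.1%. Of the 10913 searched genes that were tested, 78.5% held a GC box, 42.3% TGACG, 49.8% CCAAT and 7.73% a TATA box. These matches describe letters in a window and not bound sites.

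**Figure D4:**
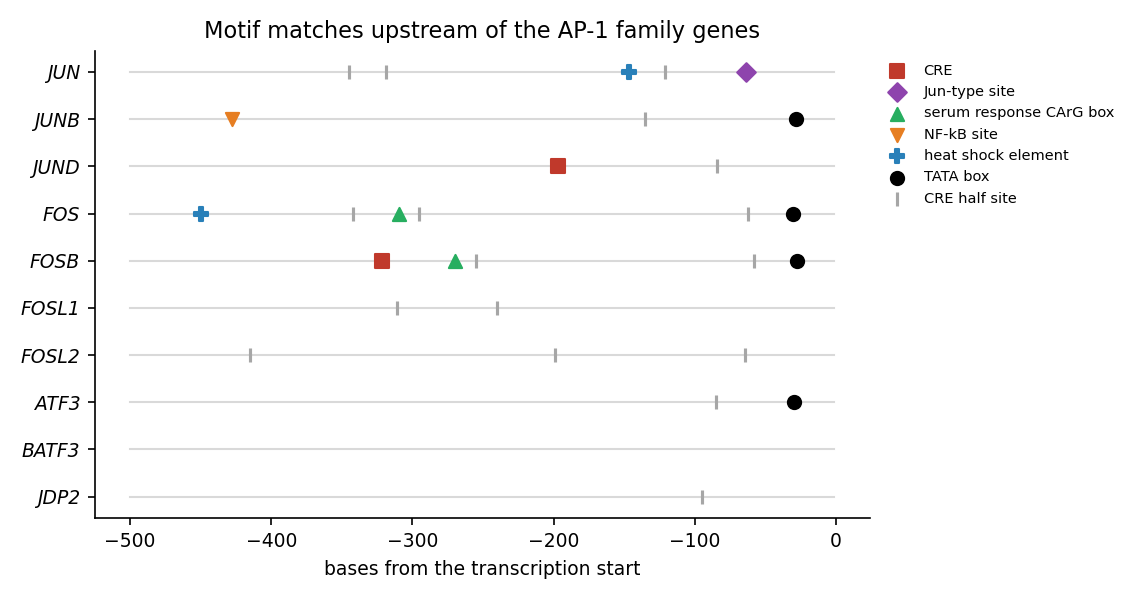
Position of motif matches in the 500 bases upstream of the transcription start of each member (horizontal axis in bases from the start). FOS and FOSB each hold a CArG box, FOSB and JUND a CRE, JUN the site of its own type, and JUNB, FOS, FOSB and ATF3 a TATA box near the start, while BATF3 holds none of the motifs plotted; GC and CCAAT boxes are not plotted, and BATF3 holds 4 GC boxes.

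The members also had a compact gene structure in common. All 10 had at most 4 exons in their MANE Select transcript, as did 19.2% of 10910 genes tested, whose median was 9 exons, and JUN, JUNB and JUND had 1 exon, as did 1.72%. A coding length below the median of 1446 bases was found in all 10 members, and a gene span below the median of 28812 bases in 9, JDP2 being the exception. ATTTA, the core of the AU-rich elements to which ZFP36 and other proteins that destabilise mRNA bind, occurred at least once in the 3′ UTR of all 10 members and of 73.1% of genes tested. FOS had 6.20 ATTTA per kb of 3′ UTR, more than 95.4% of genes tested, followed by JUNB with 4.0, while the median was 1.69 and JDP2 had 0.648. In all, 6 members were above that median, while FOSB with 1.38, JUND with 1.34, FOSL1 with 1.195 and JDP2 were below it. The densest run of FOS, at bases 641 to 670 of its 3′ UTR in the last exon (chr14:75748768-75748797, plus strand), is shown with its overlapping ATTTA words in capitals.

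FOS: ttaATTTATTTAttaagatggattctcaga

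Genes around AP-1 were then counted from lists, leaving the members out. The lists were chosen with earlier results of these data known, so their counts and medians are a description. P-values came from edgeR's quasi-likelihood test, adjusted by the Benjamini-Hochberg method over all 13408 genes. At an adjusted p under 0.05, 17.4% of all genes tested were higher and 17.2% lower. With the fold limit as well, 1.44% were higher and 1.87% lower. Most of the upstream kinases changed by little or did not pass. Of 37 kinase genes of the JNK, ERK and p38 cascades, 12 rose, 3 fell and 22 did not pass at 0.05. Their median log2 fold change was 0.055. In the fit with offsets for gene length 5 of these kinases were higher instead of 12, and with upper quartile scaling 5 were lower instead of 3. MAP3K8, a kinase that activates ERK and JNK downstream of inflammatory receptors, rose from 7.84 ± 0.232 to 13.3 ± 0.742 CPM (log2 fold change 0.76 ± 0.094, adjusted p = 4.39e-07) and was the 1 kinase past the fold limit. MAP2K3 (log2 fold change 0.25) and RPS6KA3 (0.24) came next. MAPKAPK3 fell by 0.24 on the log2 scale (adjusted p = 3.89e-08) and MAPK3, which encodes ERK1, fell by 0.22 (adjusted p = 3.64e-05). The third, MAP2K6, at -0.20 ± 0.069, passed in 10 of 17 alternative fits and was lost when control replicate 2 or 3 or SMIP34 replicate 1 or 3 was left out (adjusted p up to 0.156 over the alternatives). The JNK gene MAPK9 rose by 0.14 (adjusted p = 0.00321, and 0.0627 with offsets for gene length), while MAPK8, the other main JNK gene, had a log2 fold change of 0.06 ± 0.072 and did not pass the test.

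Of 14 tested genes for factors that act on the FOS and JUN promoters, 8 were higher and 1 was lower, none past the fold limit, with a median log2 fold change of 0.17. In the fit with offsets for gene length 6 were higher and 1 was lower. ELK3, an ETS factor that acts with SRF, rose from 24.7 ± 1.06 to 32.4 ± 2.37 CPM (log2 fold change 0.39 ± 0.062, adjusted p = 1.93e-05). The coactivator gene EP300 rose from 69.8 ± 2.78 to 90.4 ± 4.55 CPM (log2 fold change 0.38 ± 0.042, adjusted p = 9.54e-08), and MEF2D, which binds the JUN promoter, rose by 0.25 on the log2 scale. SRF itself, whose CArG box is shown above for FOS and FOSB, had a log2 fold change of 0.09 ± 0.039 and did not pass (adjusted p = 0.0866), nor did ELK1 at -0.09 ± 0.042. The lower gene was ATF1, a CRE binding factor, at -0.21 ± 0.059 (adjusted p = 0.00709), which did not pass without SMIP34 replicate 2 (adjusted p = 0.0545).

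Of 20 genes that govern the turnover of JUN and FOS protein and mRNA, 12 were higher and 0 lower, with a median log2 fold change of 0.12. In the fit with offsets for gene length 7 were higher and 1 was lower, and 1 was also lower without control replicate 3 and with upper quartile scaling. ZFP36, which binds AU-rich elements such as those of FOS and starts mRNA decay, rose from 25.7 ± 1.19 to 46.4 ± 4.54 CPM (log2 fold change 0.85 ± 0.063, adjusted p = 4.53e-11). BTG2, a cofactor of deadenylation, rose from 6.34 ± 0.125 to 9.26 ± 0.436 CPM (log2 fold change 0.55 ± 0.11, adjusted p = 0.000235), and fell under the fold limit with DESeq2's normal prior, which shrinks the changes of genes with few counts (0.39). FBXW7, a ubiquitin ligase subunit for phosphorylated JUN, had a log2 fold change of 0.17 ± 0.077 and did not pass (adjusted p = 0.0848).

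Among 38 tested genes known as AP-1 targets, 22 were higher and 3 lower, with a median log2 fold change of 0.18, and 6 higher genes and 1 lower gene passed the fold limit. Another 15 genes of the list had too few counts, among them MMP1, MMP3, MMP9, IL6 and PTGS2. IL8, a neutrophil chemokine with AP-1 and NF-kB sites, rose from 1.60 ± 0.443 to 7.66 ± 0.455 CPM (log2 fold change 2.26 ± 0.17, adjusted p = 5.65e-11, and a log2 fold change of 1.20 with DESeq2's normal prior). HMOX1, which degrades heme, rose from 11.7 ± 0.898 to 18.4 ± 2.04 CPM, and PLAUR, the urokinase receptor, from 22.9 ± 1.94 to 33.8 ± 1.34 CPM (log2 fold change 0.56 ± 0.063, and 0.50, just under the fold limit, with DESeq2's normal prior or without control replicate 1). PLAU, which encodes urokinase itself, rose from 362 ± 4.96 to 474 ± 7.82 CPM and the cell cycle gene CCND1 from 795 ± 11.2 to 864 ± 4.98 CPM, both below the fold limit. DCLK1 was higher in this fit only weakly (log2 fold change 0.74 ± 0.25, adjusted p = 0.0226) and passed in 11 of 17 alternative fits, being lost when control replicate 1 or SMIP34 replicate 1 or 3 was left out (adjusted p up to 0.0951 over the alternatives). The lower genes were MMP7, a matrix protease, which fell from 4.26 ± 0.210 to 2.16 ± 0.260 CPM (log2 fold change -0.98 ± 0.17, and -0.49 with DESeq2's normal prior, inside the fold limit), TIMP1, a protease inhibitor, which fell by 0.24 on the log2 scale, and VEGFA at -0.11 ± 0.041, which passed in 8 of 17 alternative fits and was lost when any control replicate or SMIP34 replicate 2 or 3 was left out (adjusted p up to 0.277 over the alternatives). With upper quartile scaling 5 targets were lower instead of 3.

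The list of other immediate early genes had the highest median of the lists around AP-1. Of its 34 tested genes, 20 were higher and 1 lower, with a median log2 fold change of 0.31, and 10 of the higher genes passed the fold limit. GADD45B, a stress gene that feeds into p38 and JNK, rose from 18.2 ± 0.186 to 56.6 ± 0.817 CPM (log2 fold change 1.64 ± 0.053, adjusted p = 1.38e-18). The orphan nuclear receptor genes NR4A2 and NR4A1 rose by 1.01 ± 0.13 and 0.97 ± 0.095 on the log2 scale (0.65 for NR4A2 with DESeq2's normal prior). EGR1, which shares with FOS its control by SRF, rose only from 89.9 ± 2.27 to 104 ± 1.79 CPM (log2 fold change 0.21 ± 0.035, adjusted p = 4.58e-05). TRIB1, which encodes a pseudokinase, fell from 46.5 ± 2.55 to 34.5 ± 3.09 CPM (log2 fold change -0.43 ± 0.058).

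The other bZIP genes gave a different count. Of 34 tested, 9 were higher, 7 lower and 18 did not pass, with a median log2 fold change of -0.029, and 2 higher genes passed the fold limit. BACH2 rose from 1.0 ± 0.165 to 1.96 ± 0.242 CPM (log2 fold change 0.97 ± 0.25, adjusted p = 0.00362), and lost its place past the fold limit with DESeq2's normal prior (0.31). The small Maf genes MAFK and MAFF, whose proteins pair with NRF2 and BACH proteins, rose by 0.51 ± 0.055 and 0.47 ± 0.045 on the log2 scale, MAFK lying between 0.46 and 0.53 over the alternative fits. ATF4, the effector of the integrated stress response, fell from 382 ± 3.83 to 296 ± 6.94 CPM (log2 fold change -0.37 ± 0.027, adjusted p = 4.44e-11), and CEBPB fell from 78.9 ± 1.61 to 62.3 ± 1.13 CPM (log2 fold change -0.34 ± 0.039). CREB3L4 (-0.23 ± 0.085) passed in 8 of 17 alternative fits and was lost when any control replicate or SMIP34 replicate 1 or 2 was left out (adjusted p up to 0.172 over the alternatives). The mRNAs of ATF3 and ATF4, although both stress-induced bZIP genes, thus changed in opposite directions, and ATF4 protein was not measured in these libraries. No list was tested as a whole, and some genes, such as ZFP36 and MAFF, stand in 2 lists.

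**Figure D5:**
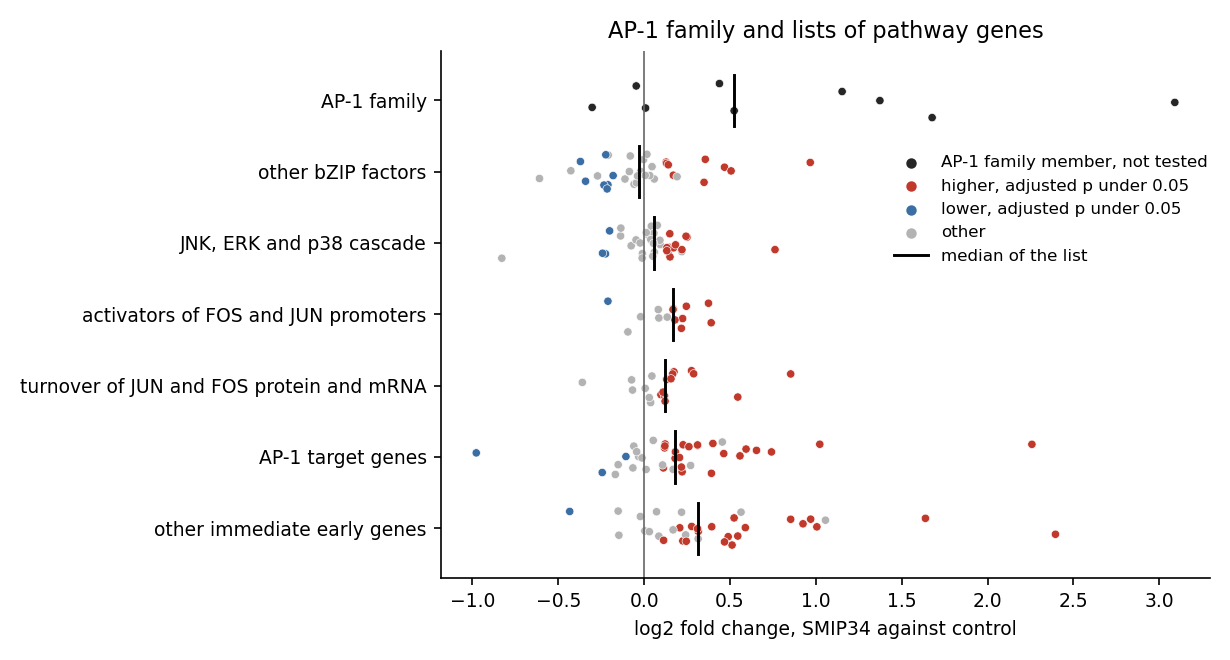
Log2 fold change of SMIP34 against control for each tested gene of the AP-1 family (dark points) and of 6 lists around it, with genes higher (red), lower (blue) or neither (grey) at an adjusted p-value under 0.05, and a bar at the median. The medians run from -0.029 for other bZIP factors to 0.31 for other immediate early genes.

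The genes whose pattern over the 6 libraries lay nearest to JUN, FOSB and ATF3 were found by the root mean square difference of log2 CPM, relative to the control mean, among 12596 genes with at least 1 CPM on average. Nearest to JUN were OASL (difference 0.134), TNFAIP3, CCL20, GADD45B and RSAD2. OASL went from 4.72 to 13.1 CPM and TNFAIP3, an inhibitor of NF-kB signalling, from 7.43 to 21.2 CPM. Nearest to ATF3 were GADD45B (difference 0.0901), TNFAIP3, CXCL3, OASL and GEM, so that 3 of the 5 genes were shared with JUN. Nearest to FOSB were HSPA6 (difference 0.284), a stress-inducible HSP70 gene that went from 1.18 to 11.7 CPM, then ASMTL, IL8, HSPA1A and PLA2G4C. ASMTL and HSPA1A are each annotated at several places in the authors' gene models, so their counts are uncertain. In control, CXCL3 (0.745 CPM), GEM (0.533), HSPA1A (0.428) and PLA2G4C (0.448) lay below 1 CPM. They met the limit on the average only through the SMIP34 libraries, so that limit favours genes that rose. The differences around FOSB were larger than those around JUN and ATF3, and the reason was not tested. With 3 libraries in each group, these patterns rest mainly on the difference between the groups.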

How the data were processed

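mRNA of HEC-1-A cells was sequenced in 3 control and 3 SMIP34 libraries. Per the file headers, the authors counted reads per hg19 gene with featureCounts, giving reads with several places or overlapping genes fractional counts, so the deposited values are expected counts, of which 6.31% to 7.43% per library were not whole. The labels name HISAT2 as aligner, and the paper's methods name other tools. Counts were rounded, genes with low counts removed with filterByExpr, libraries scaled by TMM, and SMIP34 compared with control in edgeR 4.0.16 (quasi-likelihood, R 4.3.3) without covariates. Genes were called at a Benjamini-Hochberg adjusted p under 0.05 with a log2 fold change over 0.5 in either direction, which gave 193 higher and 251 lower genes. DESeq2 1.42.0 and limma 3.58.1 served as alternatives. The fit was tested on simulated data. Level comparisons used CPM divided by the exon length of the authors' gene models in kb.

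The members and lists were chosen with earlier results of these data known. The genes named in the text are all members, PELP1, up to 3 genes with the largest increase and decrease per list (adjusted p-value under 0.05, mean of at least 1 CPM), the 5 genes nearest to JUN, FOSB and ATF3, markers, and list genes named for their role. Replicates of a group differed by more than sampling noise (chi-square per gene of 1.90 to 3.27, against 8.79 to 13.3 between groups). Counting error weighed most on the members with few control counts, BATF3 (4 to 12), FOSB (34 to 46), FOS (98 to 157) and ATF3 (141 to 182).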

Additional observations from a re-analysis of the deposited data

How the results depend on the processing

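Over 17 alternatives (scaling, filter, test, replicate block, gene length offsets and each library left out), 5 members were called higher and 0 lower in each; without a fold limit, 6 were called higher and 1 lower. With each library left out in turn, 180 to 210 genes were called higher and 207 to 242 lower. DESeq2's normal prior called 69 higher and 48 lower genes, and no fold limit 2338 and 2305. Of 153 log2 fold changes of members, 146 moved by less than 1 SD between replicates. The prior gave 1.29 for JUN, 0.83 for FOS, 1.98 for FOSB and 1.36 for ATF3. Length offsets, tried because the median log2 fold change was -0.10 among the shortest genes and 0.115 among the longest (of 10 length classes), gave 0.49 for JUNB, 0.057 for JUND and 0.58 for FOSL1. The sign of JUND was positive in 15 of 17. MAFK fell to or below the fold limit in 5 settings, including without control replicate 2 and without SMIP34 replicate 3. Of 204 list counts, 194 stayed within 1.5 times. The cause of these shifts was not tested.

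Same-numbered libraries did not deviate together over all genes tested (correlations of -0.028, 0.034 and -0.011). Whether they were prepared as pairs cannot be read from these correlations. With the replicate block, 200 genes were called higher and 254 lower, and 5 members higher.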
